A study of Homo sapiens with 3 samples.

Results

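Cholesterol synthesis and its sterol control were followed through 32 genes, chosen by name from textbook knowledge of the pathway and matched to the symbols of the deposited matrices, out of 58735 features. They comprised 19 enzymes of cholesterol synthesis, 5 genes of the SREBP control system, 2 sterol carriers, 4 fatty acid enzymes and 2 targets of the LXR receptors. Of the 32, 22 had a mean of at least 10 CPM (counts per 1e6 UMIs of the library) over the libraries, as did 8143 of all features, and ratios were counted for these. The other 10, MVK, MVD, LSS, CYP51A1, TM7SF2, NSDHL, HSD17B7, SCAP, STARD4 and ABCG1, are given by level.

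Single-cell RNA sequencing from the 3′ end, in droplets, had been run on FaDu, an established squamous carcinoma line from a human hypopharynx, and on a FaDu subline selected for resistance to TPF (paclitaxel, cisplatin and 5-fluorouracil). FaDu cells had been given cinobufotalin, a bufadienolide steroid, and gave what is called here the FaDu library. The subline gave a library from cells under TPF (the TPF library) and another from cells under TPF and cinobufotalin together (the TPF-cinobufotalin library). Levels below follow that order. Each group was 1 library, so nothing was tested between groups and no spread between cultures is known, and each interval is a 95% interval of counting error alone. Both comparisons with FaDu cells differ in line and in TPF together and share the FaDu library, so they are not independent of each other, and the TPF library also differs from it in lacking cinobufotalin. FaDu cells without cinobufotalin and the subline off TPF were not analysed here. Whether the subline is a single clone, and the doses and times of the agents, were not used here.

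After filtering, 6123, 4862 and 7525 cells remained, with 134802289 to 165847771 UMIs per library and a median of 17867 to 27920.5 UMIs per cell. The pairs of libraries shared 9, 13 and 10 cell barcodes. All 10 squamous epithelial markers reached a mean of 5 CPM, with summed levels of 6930, 5127 and 3986 CPM, while 0 of 6 fibroblast, 0 of 6 immune and 0 of 4 endothelial markers did. The FaDu library stood apart in its RNA: MALAT1, a noncoding RNA kept in the nucleus, had a median share of 0.0892% of UMIs per cell there against 0.795% and 0.731%, and ribosomal protein genes took 18.5% against 13.5% and 14.0%. The median gene was 0.37 and 0.31 higher on the log2 scale in the TPF and TPF-cinobufotalin libraries than in the FaDu library. Ratios are therefore given as a log2 ratio of CPM minus that of the median gene (relative log2 ratio), and a gene was counted as higher or lower when at least 1.5-fold from the median gene.

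Cholesterol is built in the endoplasmic reticulum from acetyl-CoA through mevalonate, isoprenoid diphosphates, squalene and lanosterol. When sterols are scarce, SCAP carries the membrane-bound transcription factors SREBP-1 and SREBP-2 (from SREBF1 and SREBF2) to the Golgi for cleavage, and the released factors raise transcription of the enzymes together with the nearby factors NF-Y and SP1. When sterols are plentiful, INSIG1 and INSIG2 hold SCAP back, and INSIG1 is itself an SREBP target, so its RNA is commonly read as a sign of SREBP activity.

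Because members of this pathway share a transcription factor, their promoters were searched first. RefSeq windows from 250 bases before to 50 bases after the start (GRCh38.p14) were found for 27 of the 32 members, and ACAT2, FDFT1, SQLE, FASN and ABCG1 were not matched. A gene was counted when any of its windows held the motif on either strand. The NF-Y box CCAAT was in 21 of 27 members (77.8%) and in 14 of the 16 matched enzymes, against 39.7% of 27305 genes. INSIG2, SREBF1, SCAP, NPC1, PMVK and CYP51A1 held none. The SP1-type GC box GGGCGG was in 26 of 27 members (all but NSDHL) against 48.3% of genes. The sterol response element TCACNCCAC was in SREBF2 alone, against 1.39% of genes, and its shorter core CACNCCAC, which lies within the longer motif, was in SREBF2, INSIG1, IDI1, SC5D, SCD and ACACA (22.2% of 27) against 7.05%. These are letter matches in short windows, of which the 27 members had 38 and the 27305 genes 35116. No limit to protein-coding genes was set on the 27305, while all 32 members are protein-coding. The sequences printed are the part of 4 windows upstream of the annotated gene. They are those of the SREBP-2 gene, of INSIG1, of the HMG-CoA synthase HMGCS1 and of MSMO1. MSMO1 was the enzyme whose level differed most between phase classes of the resistant libraries. Capitals mark CCAAT or its reverse complement ATTGG, and the sterol core or its reverse complement. The windows are chr22:41832855-41833078 on the plus strand for SREBF2, chr7:155297628-155297775 on the plus strand for INSIG1, chr5:43313513-43313662 on the minus strand for HMGCS1 and chr4:165327419-165327622 on the plus strand for MSMO1, each written 5′ to 3′ along its gene.
SREBF2: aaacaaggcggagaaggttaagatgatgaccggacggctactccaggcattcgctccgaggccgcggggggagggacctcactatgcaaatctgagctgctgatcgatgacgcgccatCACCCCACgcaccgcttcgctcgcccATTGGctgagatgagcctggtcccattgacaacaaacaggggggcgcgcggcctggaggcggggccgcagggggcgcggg
INSIG1: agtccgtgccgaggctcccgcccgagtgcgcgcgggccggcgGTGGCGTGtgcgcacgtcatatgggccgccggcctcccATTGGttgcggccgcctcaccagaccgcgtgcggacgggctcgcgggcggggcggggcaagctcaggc
HMGCS1: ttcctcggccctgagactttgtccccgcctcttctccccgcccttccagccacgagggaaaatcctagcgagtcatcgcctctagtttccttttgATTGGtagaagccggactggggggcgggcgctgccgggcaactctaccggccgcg
MSMO1: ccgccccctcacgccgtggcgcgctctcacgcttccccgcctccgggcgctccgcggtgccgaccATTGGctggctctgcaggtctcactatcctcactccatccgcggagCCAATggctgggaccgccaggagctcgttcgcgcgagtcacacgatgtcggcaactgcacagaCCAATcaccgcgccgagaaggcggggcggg
SREBF2 and INSIG1 each showed 1 sterol core and 1 NF-Y box in this stretch, HMGCS1 showed 1 NF-Y box and no core, and MSMO1 showed 3 NF-Y boxes and no core.

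The first comparison asked what cinobufotalin added to TPF in resistant cells, the pair that differed in 1 labelled factor. None of the 22 members was counted as higher or lower in the TPF-cinobufotalin library over the TPF library. Among all genes 0.111% were counted as higher and 0.0982% as lower, so the count of 0 does not set the members apart from other genes. The members' median relative log2 ratio was 0.0044, with 11 above and 11 below the median gene. Of these 22, PMVK (-0.36, -0.46 to -0.27), which phosphorylates mevalonate phosphate, lay furthest below. FDPS (-0.25, -0.29 to -0.21), which makes farnesyl diphosphate, and GGPS1 (-0.18, -0.27 to -0.09), which makes geranylgeranyl diphosphate, came next. Among the members below the floor, MVK (-0.44, -0.56 to -0.32) and HSD17B7 (-0.28, -0.41 to -0.15) lay lower than FDPS. Furthest above were ACACA (0.27, 0.22 to 0.31), the carboxylase that commits acetyl-CoA to fatty acids, and SQLE (0.20, 0.17 to 0.22), the squalene epoxidase. PMVK stood at 15.4 CPM without and 11.5 CPM with cinobufotalin, and SQLE at 160 and 176 CPM. The 4 measured SREBP control genes lay within -0.01 to 0.14 of the median gene.

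The comparison of the TPF library with the FaDu library looked different. Of 22 members 9 were counted as lower and 0 as higher, where 11.3% of all genes were counted as lower and 14.9% as higher. The 9 were INSIG1, INSIG2, SREBF1, SREBF2, EBP, DHCR7, GGPS1, FASN and SCD. The median member lay at -0.39 and 16 of 22 lay below the median gene. In the TPF-cinobufotalin library over the FaDu library 8 members were counted as lower (INSIG1, INSIG2, SREBF1, EBP, DHCR7, GGPS1, SCD and PMVK) and 0 as higher, where 13.3% of all genes were lower and 17.5% higher, and the median member lay at -0.42. These counts rest on the scale. On plain CPM ratios 0 members were at least 1.5-fold lower and 2, NPC1 and MYLIP, were higher in each of these comparisons, while with TMM factors 11 and 12 were lower and 0 higher. The counts over all genes also depended on the scale: on plain CPM ratios 34.9% and 32.6% were higher and 2.01% and 4.14% lower, and with TMM factors 8.46% and 9.96% were higher and 21.5% and 25.003% lower. In the TPF library ACAT2, FDPS, SC5D and ACACA lay below the median gene but above 0 on plain CPM ratios (0.11, 0.28, 0.34 and 0.12), as did ACAT2 (0.03), IDI1 (0.25) and SC5D (0.15) in the TPF-cinobufotalin library. Counting error was small beside these differences, but 90.8% and 92.1% of all genes had a counting interval that excluded the median gene, so such an interval does not set a gene apart.

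**Figure D1:**
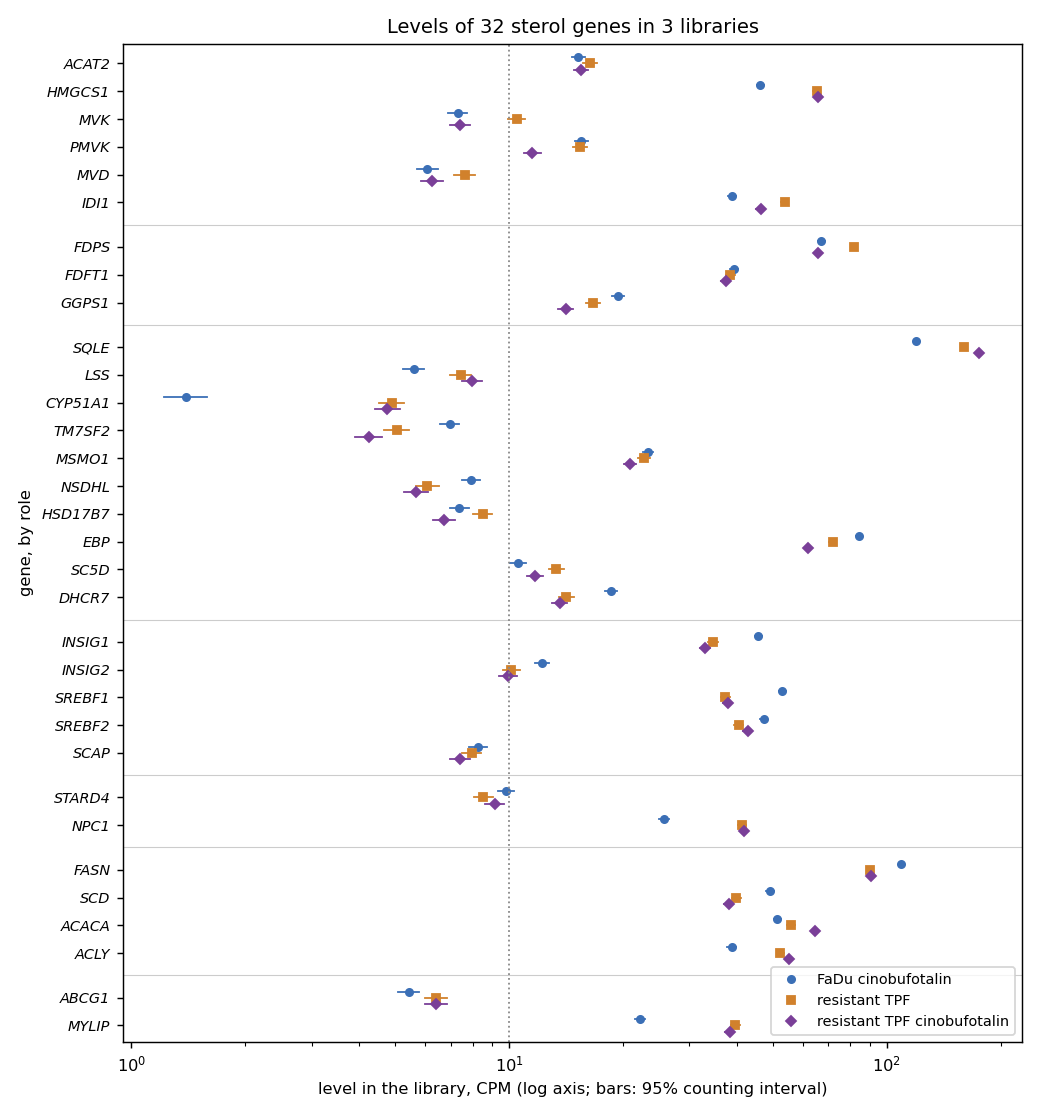
Level of each of the 32 genes in each library, in CPM on a log axis, with 95% counting intervals as bars; genes are grouped by role and the dotted line marks 10 CPM. INSIG1, SREBF1, EBP and FASN had their highest level in the FaDu library, and NPC1, MYLIP and HMGCS1 their lowest.

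Over all kept cells the SREBP control system held the plainest pattern, since all 4 of its measured members were lower in the TPF library. INSIG1, the sterol-responsive retention protein, stood at 45.7, 34.6 and 33.0 CPM. Its relative log2 ratio was -0.77 (-0.82 to -0.72) in the TPF library and -0.78 (-0.84 to -0.73) in the TPF-cinobufotalin library. Its level was high in FaDu cells and almost the same in both resistant libraries.

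INSIG2, the second retention protein, stood at 12.2, 10.1 and 9.95 CPM, with relative log2 ratios of -0.64 (-0.74 to -0.54) and -0.61 (-0.71 to -0.51). SREBF1, which encodes the factor more tied to fatty acid synthesis, stood at 52.9, 37.3 and 37.9 CPM, at -0.88 (-0.93 to -0.83) and -0.79 (-0.84 to -0.74). This placed SREBF1 at percentile 3.11 of 8143 genes in the TPF library. SREBF2, which encodes the factor more tied to cholesterol synthesis, stood at 47.2, 40.5 and 42.8 CPM, at -0.59 (-0.65 to -0.54) and -0.46 (-0.51 to -0.41), so it was not counted as lower with cinobufotalin. SCAP, the escort, stood at 8.28, 7.95 and 7.41 CPM, below the floor. Summed, the 5 genes gave 166, 131 and 131 CPM.

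The direction of these 4 genes held on each scale used. On plain CPM ratios INSIG1, INSIG2, SREBF1 and SREBF2 were at -0.40, -0.27, -0.50 and -0.22 in the TPF library, and with TMM factors at -0.97, -0.84, -1.07 and -0.79. It also held in cells matched on MALAT1. In cells with MALAT1 at 0.3% to 1% of UMIs (881, 1706 and 2560 cells, further limited to 2% to 8% mitochondrial UMIs and at least 10000 UMIs) the 4 were at -0.83, -0.86, -0.86 and -0.93 in the TPF library and at -0.97, -0.88, -0.77 and -0.75 in the TPF-cinobufotalin library. Other members counted as lower in the TPF library were not all so in these matched cells: DHCR7 was at -0.77, but EBP (-0.44), GGPS1 (-0.39), FASN (-0.40) and SCD (-0.51) were within 1.5-fold of the median gene, and MSMO1 (-0.59) was beyond it. In all 6 members were then lower in the TPF library, where 6.80% of genes were, and 10 in the TPF-cinobufotalin library, where 9.99% were. In SREBF1 some exons lie opposite RAI1 on the other strand (18.1 CPM in the TPF library), and no source used here says whether counting used strand.

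**Figure D2:**
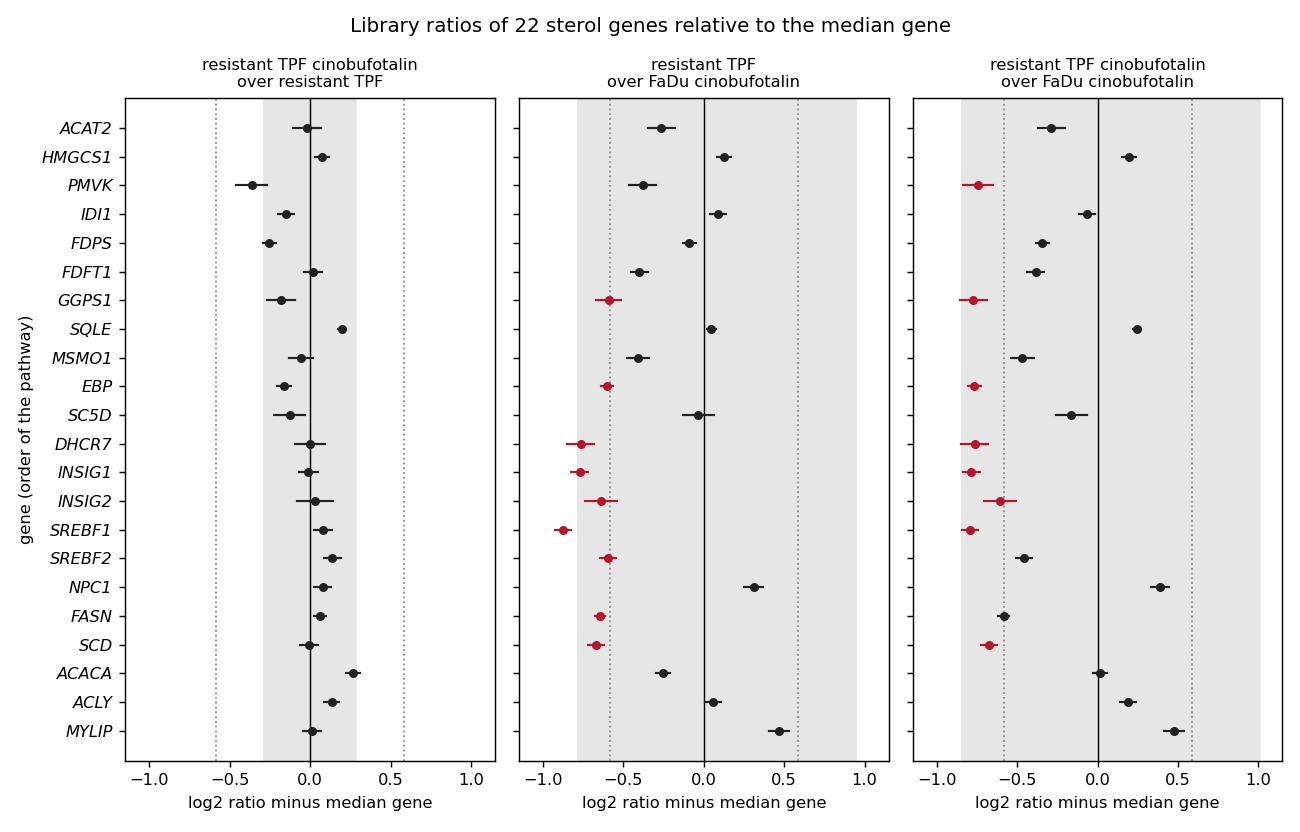
Relative log2 ratio (log2 ratio of CPM minus that of the median gene) of the 22 measured genes in the 3 comparisons, with 95% counting intervals as bars. Dotted lines mark 1.5-fold, grey marks the middle 90% of 8143 genes, and red marks genes counted as lower. No gene was counted with cinobufotalin in resistant cells, and the SREBP control genes lay to the left in both comparisons with FaDu cells.

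The mevalonate enzymes, from acetyl-CoA to the isoprenoid units, differed less. HMGCS1, the HMG-CoA synthase and a classic SREBP-2 target, stood at 46.3, 65.3 and 65.9 CPM. It lay slightly above the median gene at 0.12 (0.08 to 0.17) and 0.20 (0.15 to 0.24), but at -0.07 and -0.01 with TMM factors and at -0.13 and -0.15 in the cells matched on MALAT1, so its direction depended on the scaling and the cells. IDI1, the isopentenyl diphosphate isomerase, stood at 39.0, 53.6 and 46.3 CPM, at 0.09 (0.04 to 0.13) and -0.07 (-0.12 to -0.02), and its TPF value was -0.11 with TMM factors and -0.05 in the cells matched on MALAT1. ACAT2, an acetoacetyl-CoA thiolase, stood at 15.2, 16.4 and 15.5 CPM, at -0.27 and -0.29, and its exons in part lie opposite TCP1, which stood at 117, 177 and 143 CPM. PMVK stood at 15.5, 15.4 and 11.5 CPM, at -0.38 (-0.47 to -0.30) and -0.74 (-0.84 to -0.65). So the 4 measured mevalonate genes did not lie together. MVK and MVD, the kinase and the decarboxylase, were below the floor, at 7.30, 10.5 and 7.40 CPM and at 6.08, 7.62 and 6.26 CPM.

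At the prenyl branch point, FDPS stood at 67.1, 81.6 and 65.8 CPM, at -0.09 (-0.13 to -0.05) and -0.34 (-0.38 to -0.30). FDFT1, the squalene synthase that sends farnesyl diphosphate into sterols, stood at 39.3, 38.5 and 37.4 CPM, at -0.40 (-0.46 to -0.35) and -0.38 (-0.44 to -0.33). GGPS1, which draws farnesyl diphosphate away for protein prenylation, stood at 19.4, 16.7 and 14.1 CPM, at -0.59 (-0.67 to -0.51) and -0.77 (-0.85 to -0.69). GGPS1 is uncertain, because 37.3% of its exon bases are shared on the same strand with TBCE. All 3 lay below the median gene in both comparisons with FaDu cells, except that FDPS was at 0.20 in the TPF library in the cells matched on MALAT1.

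Among the sterol enzymes SQLE, a rate-limiting step after the mevalonate stage, stood at 119, 160 and 176 CPM. It lay at 0.05 (0.02 to 0.07) and 0.25 (0.22 to 0.27), and at -0.15 and 0.04 with TMM factors. EBP, the sterol isomerase, went the other way at 84.4, 71.8 and 61.7 CPM, with relative log2 ratios of -0.60 (-0.64 to -0.57) and -0.77 (-0.80 to -0.73). DHCR7, the reductase of the last step, stood at 18.6, 14.2 and 13.6 CPM, at -0.77 (-0.85 to -0.68) in both comparisons. EBP and DHCR7 were highest in FaDu cells, and DHCR7 hardly differed between the resistant libraries.

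MSMO1, the C4-methyl sterol oxidase, stood at 23.3, 22.7 and 20.9 CPM, at -0.41 (-0.48 to -0.34) and -0.47 (-0.54 to -0.40). SC5D, the sterol C5 desaturase, stood at 10.6, 13.3 and 11.7 CPM, at -0.04 (-0.13 to 0.06) and -0.16 (-0.26 to -0.06). The other 5 sterol enzymes were below the floor, with LSS, which closes the ring to lanosterol, at 5.58, 7.44 and 7.97 CPM and TM7SF2, NSDHL and HSD17B7 between 4.24 and 8.52 CPM. CYP51A1, the lanosterol demethylase, stood at 1.39, 4.89 and 4.76 CPM and was the member that differed most, at 1.44 (1.22 to 1.66) and 1.46 (1.24 to 1.68). Its level is uncertain, since 79.4% of its exon bases are shared on the same strand with AC000120.2, a gene at 0 to 0.0074 CPM here. Summed over the 19 enzymes the level was 541 (537 to 544), 619 (615 to 624) and 583 (579 to 587) CPM, a relative log2 ratio of -0.18 and -0.20. The enzymes together were thus nearer to the median gene than the 5 control genes, which lay at -0.72 and -0.66 as a sum. SQLE, the enzyme with the highest level, weighs most in the enzyme sum. Taken singly, the 12 measured enzymes had a median of -0.32 and -0.36, with 9 and 10 below the median gene. Of these 12, 3 and 4 were counted as lower, where 11.3% and 13.3% of all genes were.

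Fatty acid enzymes, which SREBP-1 drives, were split. FASN, the fatty acid synthase, stood at 109, 90.3 and 90.5 CPM, at -0.65 (-0.68 to -0.61) and -0.58 (-0.62 to -0.55). SCD, the stearoyl-CoA desaturase, stood at 49.1, 39.9 and 38.2 CPM, at -0.67 (-0.72 to -0.62) and -0.68 (-0.73 to -0.62). Both were high in FaDu cells and alike in the resistant libraries. ACLY, which makes cytosolic acetyl-CoA for both pathways, stood at 38.8, 52.2 and 55.0 CPM, at 0.06 (0.01 to 0.11) and 0.19 (0.14 to 0.24), and at -0.14 and -0.02 with TMM factors. ACACA stood at 51.3, 55.7 and 64.4 CPM, at -0.25 (-0.30 to -0.21) and 0.01 (-0.03 to 0.06).

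Of the carriers and LXR targets, NPC1 and MYLIP stood opposite to the control genes, and STARD4 and ABCG1 did not. NPC1, which exports cholesterol from lysosomes, stood at 25.8, 41.3 and 41.9 CPM, at 0.31 (0.25 to 0.37) and 0.39 (0.33 to 0.45). MYLIP, an LXR-induced ubiquitin ligase that sends lipoprotein receptors to degradation, stood at 22.2, 39.7 and 38.4 CPM, at 0.47 (0.41 to 0.53) and 0.48 (0.41 to 0.54), the highest of the 22 in both comparisons. Neither reached 1.5-fold from the median gene. With TMM factors NPC1 was at 0.11 and 0.18 and MYLIP at 0.27 and 0.27, and in the cells matched on MALAT1 NPC1 was at 0.03 and 0.09 and MYLIP at 0.20 and 0.15. STARD4, a cytosolic sterol carrier, stood at 9.82, 8.54 and 9.15 CPM, at -0.57 and -0.42, and ABCG1, a sterol exporter, at 5.42, 6.42 and 6.41 CPM, at -0.13 and -0.07, both below the floor.

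A wider list of 34 genes around the pathway was set beside the members. Of these 26 were measured, 0 were counted with cinobufotalin in resistant cells, and their median was near the median gene in the TPF (-0.03) and TPF-cinobufotalin (-0.03) libraries over FaDu cells. Over FaDu cells, 5 were counted as lower (against 11.3% of all genes) and 0 as higher (against 14.9%) in the TPF library: RNF145 (-0.92), a sterol-regulated ubiquitin ligase of the endoplasmic reticulum, TECR (-0.90) and ELOVL1 (-0.79) of very long chain fatty acid elongation, COQ2 (-0.76) of ubiquinone synthesis, and NPC2 (-0.65), the soluble partner of NPC1. RNF145 stood at 96.2, 65.6 and 77.9 CPM. For the TPF-cinobufotalin library 5 were lower (against 13.3%) and 1 higher (against 17.5%), MBTPS1 (0.59, 0.53 to 0.65), the first protease that cleaves SREBP in the Golgi, at 24.0, 44.1 and 44.8 CPM.

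Cells were next divided by the cell cycle phase called from S and G2/M gene lists, after each cell was thinned to 5000 UMIs so that depth was equal. This left out 144, 205 and 571 shallower cells, and the calls rest on expression scores, so they are not a measure of cycling. In the FaDu library (1691 cells called G1, 3407 called G2M) 0 of 22 members were at least 1.5-fold from the median gene, where 2.15% of genes were higher and 2.89% lower in G1. In the TPF library (789 and 2416 cells) 5 were higher in cells called G1 (MSMO1, INSIG2, SREBF2, NPC1 and ACACA) and EBP was lower, where 9.43% of genes were higher and 9.32% lower. In the TPF-cinobufotalin library (1054 and 3750 cells) 4 were higher (MSMO1, SC5D, INSIG1 and INSIG2) and FDPS was lower, where 7.18% of genes were higher and 7.92% lower.

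MSMO1 stood out among the members in both resistant libraries. It was at 28.3 CPM in cells called G1 and 22.6 CPM in cells called G2M of the FaDu library, a relative log2 ratio of 0.32 (0.08 to 0.56). In the TPF library the levels were 47.7 and 21.1 CPM (1.16, 0.88 to 1.44), and in the TPF-cinobufotalin library 41.0 and 20.2 CPM (1.03, 0.78 to 1.27). In cells called S it stood at 26.6, 20.8 and 20.4 CPM, so the high level was that of the G1 class. STARD4, below the floor over all cells, had the same shape, at 12.5 against 9.80 CPM, 20.025 against 7.62 CPM and 19.4 against 8.69 CPM.

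INSIG1 stood at 50.7, 44.6 and 54.3 CPM in cells called G1 and at 43.9, 32.1 and 31.5 CPM in cells called G2M. Its G1 levels were thus close in the 3 libraries, and its low level in the resistant libraries lay in the cells called S (57.2, 37.5 and 31.9 CPM) and G2M. The same held for the sum of the 5 control genes, at 186 (177 to 196), 188 (174 to 202) and 189 (177 to 201) CPM in G1 and at 173 (167 to 180), 126 (120 to 133) and 127 (122 to 132) CPM in G2M. In G1 the members of that sum did not move alike, with SREBF1 at 63.3, 55.3 and 50.5 CPM and SREBF2 at 50.3, 60.6 and 58.8 CPM. The median gene itself differs between the lines. Relative to it, INSIG1 in cells called G1 was still at -0.58 and -0.38 in the TPF and TPF-cinobufotalin libraries over FaDu cells. SREBF1 was at -0.64 and -0.55, INSIG2 at -0.38 and -0.20 and SREBF2 at -0.28 and -0.17 in the same cells. MSMO1 lay on either side of the median gene, at 0.18 and 0.20 in cells called G1 but at -0.55 and -0.56 in cells called G2M. The 19 enzymes together differed little by phase, at 540, 648 and 624 CPM in G1 and 564, 632 and 582 CPM in G2M.

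EBP and FDPS ran against the others. EBP was at 46.1 CPM in G1 and 77.8 CPM in G2M of the TPF library (-0.77, -1.01 to -0.54), and at 68.5 and 90.5 CPM in the FaDu library (-0.40, -0.54 to -0.27). FDPS was at 42.5 and 66.7 CPM in the TPF-cinobufotalin library (-0.65, -0.86 to -0.44). These enzymes were lower in cells called G1 in each library.

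**Figure D3:**
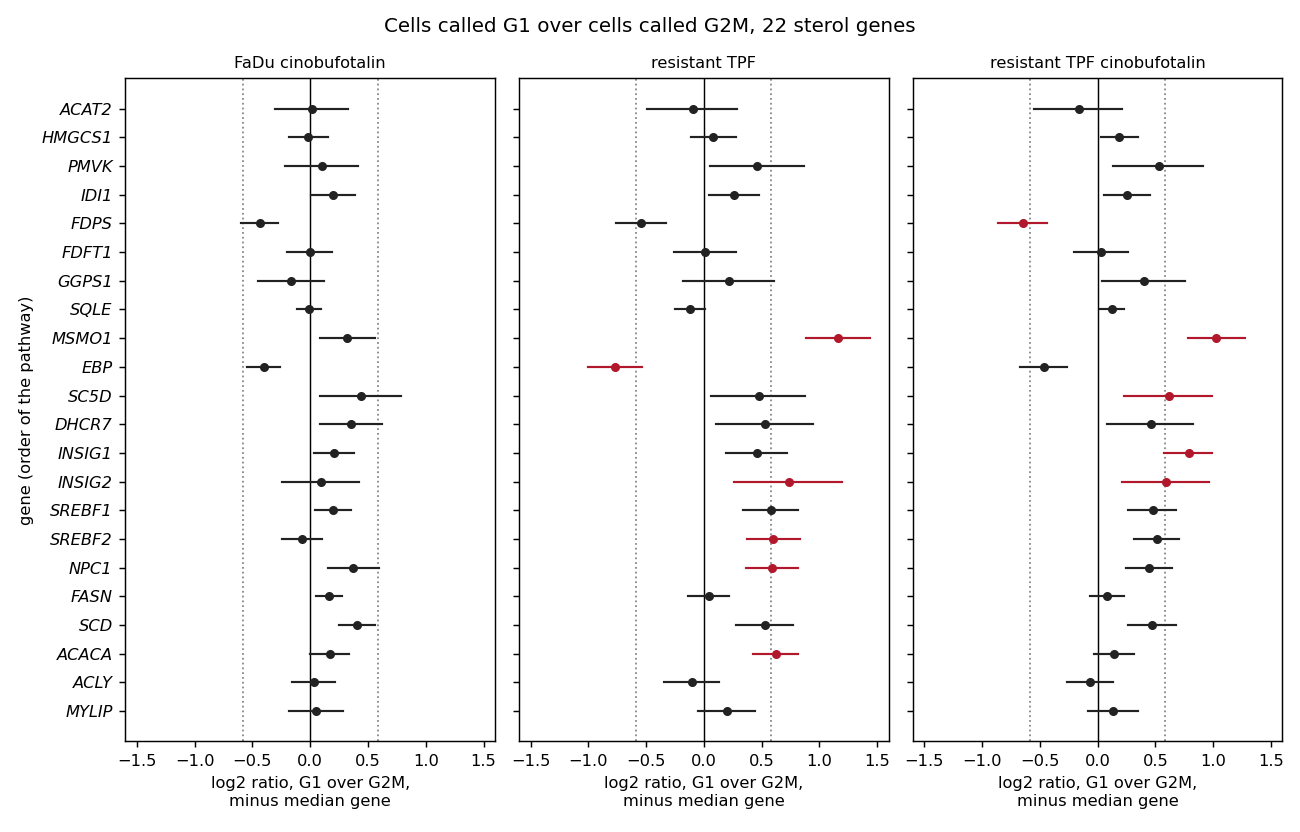
Relative log2 ratio of cells called G1 over cells called G2M within each library, for the 22 measured genes, with 95% counting intervals as bars; dotted lines mark 1.5-fold and red marks genes beyond it. MSMO1 lay at 0.32 in the FaDu library and at 1.16 and 1.03 in the resistant libraries, and EBP and FDPS lay left of 0 in all 3.

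RNA quality moved with the phase classes of the resistant libraries. Cells called G1 had a median MALAT1 share of 1.55% and 1.14% against 0.722% and 0.668% in cells called G2M, and a median of 24403 and 16033 UMIs against 29288 and 19084. In the FaDu library the shares were 0.0945% and 0.0680%. Among cells with MALAT1 at 0.3% to 1% of UMIs, which left 168 and 228 cells called G1 in the resistant libraries, MSMO1 was at 1.08 (0.47 to 1.66) and 0.60 (-0.03 to 1.18), INSIG1 at 0.31 (-0.31 to 0.88) and 0.60 (0.16 to 1.02), and SREBF2 at 0.36 (-0.21 to 0.89) and 0.17 (-0.28 to 0.59). Of the 5 members higher in cells called G1 of the TPF library, MSMO1 stayed past 1.5-fold under this limit, while INSIG2 was at 0.45 (-0.70 to 1.45), NPC1 at 0.27 (-0.26 to 0.76) and ACACA at 0.13 (-0.34 to 0.58). STARD4 was at 0.43 (-0.88 to 1.55) there. In the TPF-cinobufotalin library MSMO1, INSIG1 and INSIG2 (0.70, -0.13 to 1.45) stayed past it and SC5D was at -0.05 (-1.01 to 0.79). EBP was at -0.63 in the TPF library and FDPS, at -0.58 in the TPF-cinobufotalin library, was just inside 1.5-fold. The FaDu library kept 309 cells called G1 under this limit. SCD (0.63, 0.26 to 0.996) and EBP (-0.59, -0.94 to -0.25) were past 1.5-fold there, and ACACA was at 0.53 (0.15 to 0.91). MSMO1 was at 0.03 (-0.56 to 0.60) and INSIG1 at 0.07 (-0.35 to 0.49) in these FaDu cells. With so few cells most of these intervals were wide. How the phase contrasts of FaDu and resistant cells differ was not tested, since each line and treatment had 1 library.

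Single cells were then compared at 5000 UMIs per cell. The 19 enzymes together gave a mean of 2.82, 3.20 and 2.98 UMIs per cell, with an SD of 1.99, 2.05 and 2.10 where counting alone would give 1.68, 1.79 and 1.73. Cells thus differed in enzyme UMIs by somewhat more than counting noise. INSIG1 was seen in 20.1%, 15.5% and 14.9% of thinned cells and in 60.1%, 53.9% and 38.5% of cells at full depth. No cell type that lacks these genes was among the cells, and barcodes without cells were not used here, so free RNA was not measured.

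Cells with more INSIG1 UMIs held more enzyme UMIs in each library. With 0, 1 and 2 or more INSIG1 UMIs the enzymes came to 2.72, 3.08 and 3.70 UMIs per cell in the FaDu library, to 3.14, 3.45 and 3.98 in the TPF library, and to 2.89, 3.28 and 4.73 in the TPF-cinobufotalin library. The intervals of the lowest and highest class did not overlap, for example 2.85 to 2.94 against 4.39 to 5.09 in the last. SQLE followed the same order, at 0.859, 1.02 and 1.49 UMIs per cell in the last library, as did SCD, which was at 0.257, 0.330 and 0.505 in the first. EBP was at 0.423, 0.433 and 0.435 UMIs per cell in the FaDu library, at 0.382, 0.355 and 0.433 in the TPF library and at 0.303, 0.304 and 0.382 in the TPF-cinobufotalin library.

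**Figure D4:**
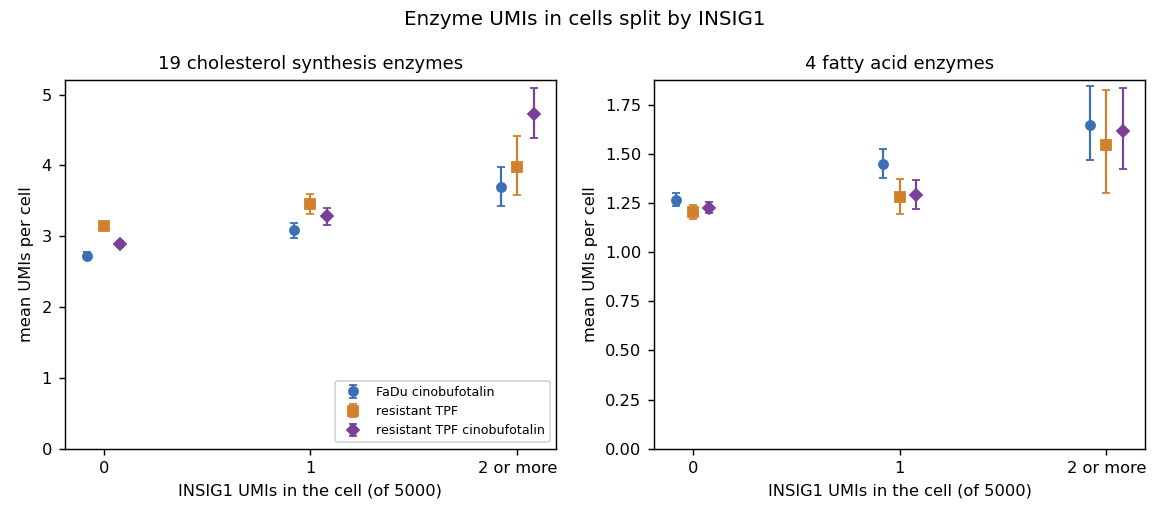
Mean UMIs per cell of the 19 cholesterol synthesis enzymes (left) and the 4 fatty acid enzymes (right) in cells with 0, 1 or 2 or more INSIG1 UMIs, all cells thinned to 5000 UMIs, with 95% counting intervals as bars. In each library the mean was highest in cells with 2 or more INSIG1 UMIs.

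MALAT1 moved with this split too. In the TPF-cinobufotalin library its median share was 0.718%, 0.838% and 1.02% over the 3 INSIG1 classes, ribosomal protein genes took 14.2%, 13.8% and 12.5%, and the median depth was 18594, 18003 and 16906 UMIs. Within cells at 0.3% to 1% MALAT1 the enzymes came to 2.95 (2.88 to 3.01), 3.06 and 3.90 (3.39 to 4.48) UMIs per cell there, and to 2.90 (2.79 to 3.02), 3.13 and 3.51 (2.99 to 4.10) in the FaDu library. In the TPF library they came to 3.03 (2.95 to 3.12), 3.36 and 3.15 (2.58 to 3.82), the last from 33 cells. The lowest and highest classes did not differ beyond counting error there. The intervals of these classes also overlapped in the FaDu library, whose highest class held 45 cells. They stood apart in the TPF-cinobufotalin library alone.

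Split by the SREBF genes, the 19 enzymes rose less over the classes of SREBF1 than over those of SREBF2. Cells with 0, 1 and 2 or more SREBF2 UMIs held 2.73, 3.01 and 3.72 UMIs of the 19 enzymes in the FaDu library, 3.14, 3.35 and 3.99 in the TPF library and 2.90, 3.24 and 3.72 in the TPF-cinobufotalin library. UMIs of the 4 fatty acid enzymes in the same classes came to 1.27, 1.38 and 1.84, to 1.203, 1.24 and 1.67, and to 1.21, 1.35 and 1.43. Both groups were thus highest in cells with 2 or more SREBF2 UMIs. Split by SREBF1, cells held 2.80, 2.85 and 3.02 enzyme UMIs in the FaDu library, 3.18, 3.22 and 3.59 in the TPF library and 2.95, 3.09 and 3.37 in the TPF-cinobufotalin library. The fatty acid enzymes came to 1.246, 1.45 and 1.78, to 1.19, 1.36 and 1.58, and to 1.23, 1.30 and 1.46. For either SREBF gene, both enzyme groups had their highest mean in cells with 2 or more of its UMIs. For SREBF1 the intervals of the 19 enzymes in the lowest and highest class overlapped in the FaDu library (2.75 to 2.85 against 2.81 to 3.25). They also overlapped in the TPF library (3.13 to 3.24 against 3.21 to 4.005). Across cells, SREBF1 correlated with the summed enzymes more than 71.7%, 67.8% and 63.5% of genes of at least 20 CPM did. SREBF2 did so more than 99.9%, 99.4% and 97.2% did. MALAT1 moved with the SREBF2 classes. Its median share over them was 0.0741%, 0.127% and 0.259% in the FaDu library and 0.768%, 0.971% and 1.41% in the TPF library. Ribosomal protein genes took 18.7%, 18.1% and 17.0% and then 13.7%, 13.1% and 12.02%. In the TPF-cinobufotalin library the MALAT1 shares over the SREBF2 classes were 0.696%, 0.861% and 1.35%. Over the SREBF1 classes MALAT1 had median shares of 0.0800%, 0.112% and 0.154% in the FaDu library. They were 0.806%, 0.800% and 1.06% in the TPF library and 0.728%, 0.774% and 0.967% in the TPF-cinobufotalin library. The part of MALAT1 in the SREBF splits was not tested.

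Pairs of enzymes varied together only weakly. Over the 21 pairs of the 7 enzymes with a mean of at least 20 CPM the median Pearson correlation across cells was 0.035, 0.025 and 0.037 (5979, 4657 and 6954 cells of the same library in each case), where pairs of all genes at that level had medians of 0.0025, 0.0015 and 0.0047. Counts this sparse hold correlations near 0, so these values describe the data and are no finding in themselves. SQLE and INSIG1 had the highest lowest value of all member pairs, at 0.076, 0.093 and 0.097, followed by SQLE with SCD (0.13, 0.080 and 0.067) and HMGCS1 with SQLE (0.098, 0.074 and 0.064). MSMO1 had the highest lowest correlation with the summed other enzymes, at 0.092, 0.103 and 0.115.

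Outside the members, the 10 genes with a mean of at least 20 CPM most like the summed enzymes across cells, by their lowest correlation over the 3 libraries, included MALAT1 (0.11, 0.14 and 0.23), NEAT1, PERP, FGFBP1, the mitochondrial ribosomal RNAs MT-RNR2 and MT-RNR1, HSP90B1, RIMS2 and PATJ. MALAT1 and NEAT1 are nuclear RNAs, and those named hold no enzyme of lipid synthesis. The summed enzymes also went with the MALAT1 share of a cell. In cells with MALAT1 under 0.1% they stood at 521, 496 and 363 CPM, and in cells over 1% at 669, 710 and 705 CPM. In the middle class, from 0.3% to 1%, the 3 libraries stood close together at 593 (573 to 613), 615 (600 to 631) and 596 (583 to 608) CPM. This is plain CPM, not relative to the median gene. In the cells matched on MALAT1 the median gene was itself 0.24 and 0.23 higher on the log2 scale in the resistant libraries. Relative to it, the median of the 22 members lay at -0.36 and -0.31 there. The 5 control genes also went with MALAT1 but kept apart between lines within each class, at 204 (192 to 216), 123 (116 to 130) and 132 (126 to 138) CPM in that middle class.

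**Figure D5:**
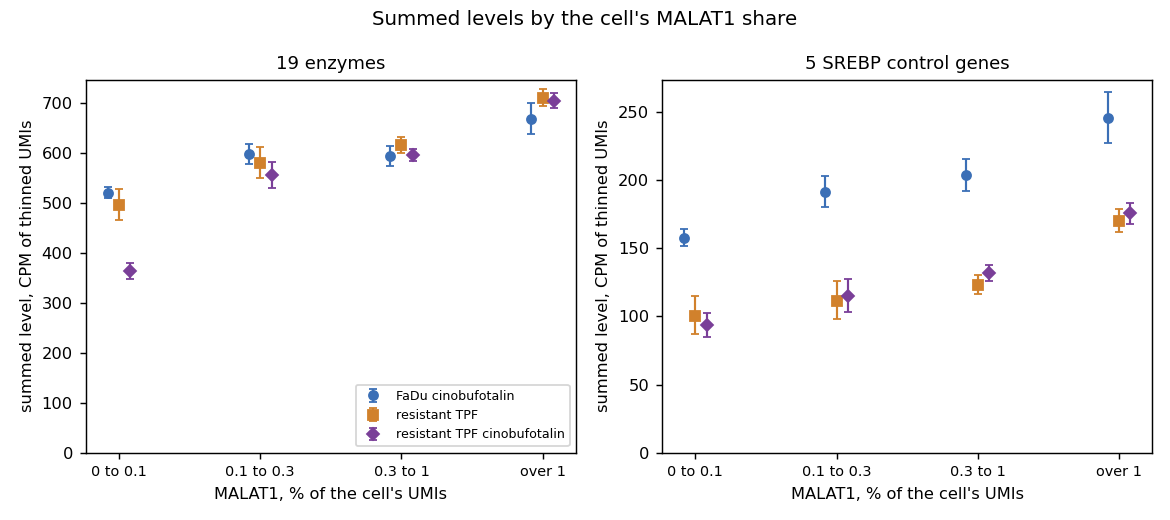
Summed level of the 19 enzymes (left) and the 5 SREBP control genes (right) in cells grouped by the share of MALAT1 in their UMIs, in CPM of thinned UMIs, with 95% counting intervals as bars. On this plain CPM scale the enzymes of the 3 libraries lay close together from 0.1% upward, while the control genes were higher in the FaDu library in each class.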

How the data were processed

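The authors deposited raw UMI counts for each gene and barcode, for which the submitters' processing notes name Cell Ranger 7.0 and hg38. No source used here gives the annotation, intronic read or strand settings of that counting. GENCODE 29, which held each of the 58735 deposited IDs, gave positions and overlaps. Kept barcodes had 1000 or more UMIs, 500 or more genes and no more than 20% mitochondrial UMIs. Doublets were not removed, and free RNA was not corrected for.

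Library sums of UMIs over kept cells were formed, and log2 ratios of CPM with 95% Clopper-Pearson intervals were computed over all genes with scipy 1.17.1, pandas 2.3.3 and numpy 2.4.6 under Python 3.11.15. TMM factors came from edgeR 4.0.16 (R 4.3.3), used for scaling alone. PCR duplicates are collapsed by UMIs, and intervals cover counting error only. Cells of at least 5000 UMIs were thinned to that number, and phases were called with scanpy 1.11.5. The calculations were checked on simulated data. Promoter sequences are from RefSeq (GRCh38.p14).

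The members, the lists, the markers and the alternatives were chosen with earlier results of these data known. All 32 members are accounted for, and other genes were named by a rule: at most 4 per list of the wider pathway, those furthest from the median gene, and the 10 genes most like the summed enzymes, of which 1 is not reported here. The splits by SREBF1 and SREBF2 and the MALAT1 classes are descriptions. The phase contrast and INSIG1 split within MALAT1 limits were added after the data were seen.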

Additional observations from a re-analysis of the deposited data

How the results depend on the processing

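No paired analysis was possible because each group had 1 library. The count of members lower than the median gene was 9 in the TPF library and 8 in the TPF-cinobufotalin library over FaDu cells. It was 4 (EBP, DHCR7, SREBF1 and FASN) and 3 (EBP, DHCR7 and FASN) of 23 in cells called G1 alone, where 13.2% and 12.5% of genes were lower. On plain CPM ratios, and on totals without mitochondrial and ribosomal protein genes, it was 0 and 0 with 2 and 2 members higher. On those totals 30.2% and 29.4% of all genes were higher and 3.03% and 5.32% lower. At 2-fold the count of members lower was 0 and 0 (1.79% and 2.63% of genes). At a looser limit 13 members (28.1% of genes) were lower and 2 (30.1%) higher with cinobufotalin, and 1 (28.3%) was higher without. In resistant cells 1 (PMVK, 3.28%) was lower with cinobufotalin at that limit. With genes from a mean of 1 CPM, 1 member (CYP51A1) was higher in each comparison with FaDu cells, where 16.8% and 18.5% of genes were. The other settings for cells, depth and scaling kept each count within 1.5 times of these. Of the member ratios under all settings 499 stayed within their interval and 359 moved out of it.

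The median correlation of enzyme pairs in the TPF library was 0.060 at 10000 UMIs, 0.052 in cells called G1, 0.016 by Spearman's rho, 0.015 at 0.3% to 1% MALAT1 and 0.0047 over enzymes of at least 50 CPM. In the TPF-cinobufotalin library it was 0.062 at 10000 UMIs, 0.065 in cells called G1 and 0.024 at 0.3% to 1% MALAT1, and in the FaDu library 0.012 over enzymes of at least 50 CPM. In the phase contrast 117 of 132 added values stayed within their interval, and SC5D in the TPF-cinobufotalin library reversed from 0.61 to -0.046 at 0.3% to 1% MALAT1. The cause was not tested for any of these.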

Other observations

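The isoprenoid branch, which uses farnesyl and geranylgeranyl diphosphate for protein prenylation, ubiquinone and dolichol, was measured through 6 of 11 listed genes. COQ2 stood at 16.2, 12.4 and 12.2 CPM in the FaDu, TPF and TPF-cinobufotalin libraries, and RABGGTA, a subunit of the Rab prenyl transferase, at 12.4, 11.2 and 9.95 CPM (relative log2 ratio -0.52 and -0.63 over FaDu cells). FNTA, a farnesyl transferase subunit, stood at 25.4, 34.3 and 26.7 CPM and lay at -0.30 (-0.37 to -0.24) with cinobufotalin in resistant cells. Of the steps before it, PMVK (-0.36) and FDPS (-0.25) lay near that value, while ACAT2 (-0.02), HMGCS1 (0.07) and IDI1 (-0.15) were nearer the median gene. MVK (-0.44) and MVD (-0.22), both below the floor, also lay under the median gene. The median of the 6 measured isoprenoid genes was 0.0018 in that comparison. In sterol storage and transport, SOAT1, which esterifies cholesterol, stood at 11.4, 17.7 and 18.9 CPM (0.27 and 0.42) and OSBP, a sterol exchanger at the Golgi, at 26.2, 45.1 and 41.6 CPM (0.41 and 0.35). ACSL3, an acyl-CoA synthetase of lipid droplets, stood at 53.3, 95.9 and 97.3 CPM (0.47 and 0.56). None of these had a replicate library.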
